A study of Mus musculus with 2 samples.

Results

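The genes examined here are 10 T lineage genes, which encode the signalling chains of the T cell receptor complex (*Cd3d*, *Cd3e*, *Cd3g* and *Cd247*), the kinase and adaptor that act directly below it (*Zap70* and *Lat*), a pair of transcription factors of early T cell development (*Tcf7* and *Bcl11b*) and a pair of surface proteins used to mark T lineage cells (*Cd7* and *Thy1*). They were listed by name for these roles, and all protein-coding RefSeq transcripts of each were kept, which gave 14 transcripts of 10 genes among 26968 transcripts and 20250 named genes. RNA-seq was performed on 1 library of pre-pro-B cells lacking *Ebf1* (*Ebf1* -/-), which came from the livers of female embryos, and 1 library of pro-B cells lacking *Rag2* (*Rag2* -/-), whose source was the marrow of adult males, both on a C57BL/6 background and both grown on OP-9 stromal cells with Il-7 at 5 ng/mL. At harvest, residual stromal cells were removed by letting them attach to a new flask for 30 min. Only the pre-pro-B cultures also received Scf and Flt3l, each at 10 ng/mL. Genotype, sex, age, tissue of origin and cytokines therefore cannot be told apart from cell type, and no difference between the libraries has a replicate check.

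A T cell receptor recognizes its ligand through variable chains but signals through the CD3 chains and the zeta chain, whose cytoplasmic tyrosine motifs are phosphorylated by Lck and then bound by the kinase Zap70. Zap70 phosphorylates the scaffold Lat, which assembles the downstream enzymes. B lineage cells use related proteins in the same order, with Cd79a and Cd79b as signalling chains, Syk as kinase and Blnk as adaptor. Progenitors that have not committed to the B lineage can still enter the T lineage, in which Notch signalling induces *Tcf7* and later *Bcl11b*.

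Values are deposited FPKM, fragments scaled to transcript length and library size. The limits in parentheses are those of Cuffdiff's own 95% interval, which rests on 1 library and holds no biological spread. At the stated 90 M reads per library, an FPKM of 1 over a transcript of 1 kilobase is worth about 90 reads. *Ebf1* itself stood at 64.0 FPKM in the *Ebf1* -/- library and at 273 FPKM in the *Rag2* -/- library. *Rag2* stood at 22.9 FPKM in the *Rag2* -/- library and at 34.5 FPKM in the *Ebf1* -/- library, so that neither targeted gene was at 0 in its own null cells, and the intervals of both genes overlapped between the libraries. A whole-transcript FPKM does not show whether the deleted part was read. The 10 B lineage markers examined all passed the 2-fold limit used here toward pro-B cells. So did 12.2% of the 10528 genes that passed the FPKM filter defined below. The FPKM of the 10 markers summed to 74.5 in the pre-pro-B library against 4057 in the pro-B library. *Ebf1*, the gene targeted in the pre-pro-B cells, is among these markers and gave 64.0 and 273 of these sums.

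The T lineage genes did not behave as a block. *Cd7*, *Tcf7*, *Cd3g* and *Thy1* were present in pre-pro-B cells and at or near 0 in pro-B cells, *Cd3d*, *Cd3e* and *Bcl11b* were under an FPKM of 1 in both, and *Zap70* and *Lat* were present in both with the higher value in pro-B cells. *Cd247* lay between these, with a lower sum but overlapping intervals. A change was read from FPKM summed per gene as the log2 ratio of the pro-B value over the pre-pro-B value after adding a pseudocount of 1, and a gene counted as lower or higher at 2-fold if its FPKM was at least 1 in a library. Of the 10 genes, 7 reached that level, 5 of these were lower in pro-B cells and 0 were higher. Among all 10528 genes that reached it, 19.1% were lower and 12.2% were higher. The median log2 change of the 10 genes was -1.03, against a median of 0 over all 20250 genes and of -0.14 over the 10528. Of the 14 transcripts, 4 had intervals that did not overlap between the libraries, all lower in pro-B cells, namely those of *Cd3g*, *Tcf7*, *Cd7* and *Thy1*. Over all 18877 protein-coding transcripts above 0 in a library, 2.06% had intervals that were apart with the lower value in pro-B cells and 0.959% with the higher value there. These are bulk libraries, in which fewer cells of a kind and less RNA per cell cannot be told apart.

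**Figure D1:**
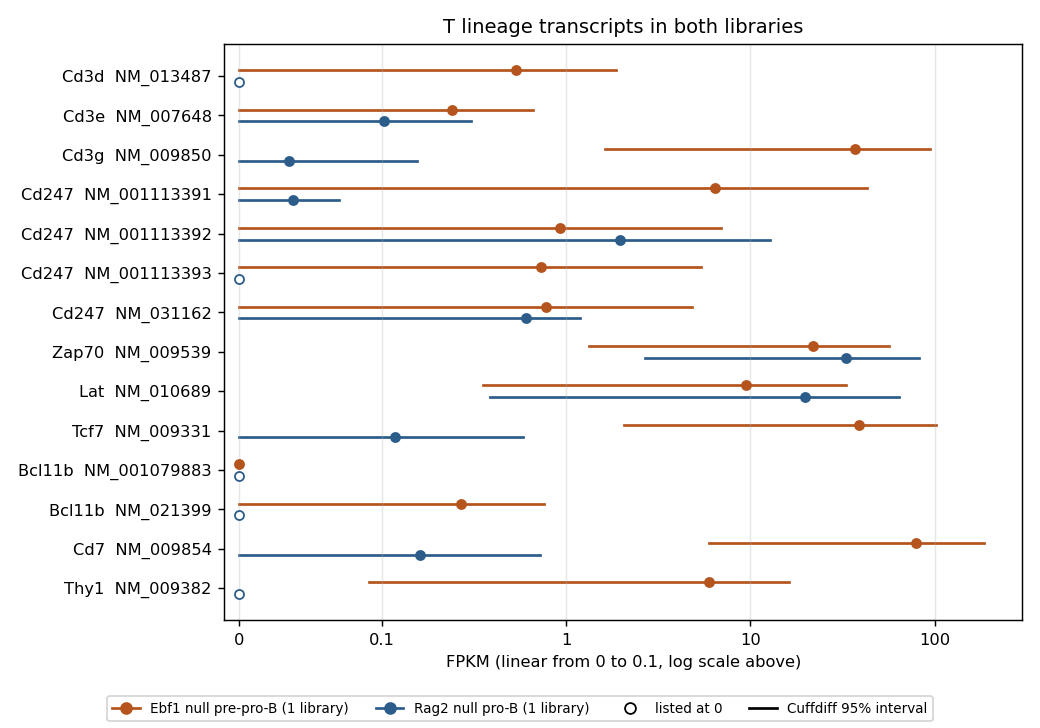
FPKM of each T lineage transcript (horizontal axis, linear to 0.1 and log scale above) in the pre-pro-B library (orange) and the pro-B library (blue), with Cuffdiff's 95% interval as a line and open circles for values listed at 0. The orange and blue lines are apart for *Cd3g*, *Tcf7*, *Cd7* and *Thy1* and overlap for *Zap70*, *Lat* and the *Cd247* transcripts.

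The CD3 gamma, delta and epsilon chains are encoded by a compact cluster on chromosome 9 of mm9 (44777655 to 44817673), 40019 bases in all, in which *Cd3g* and *Cd3d* are transcribed away from each other from starts 1355 bases apart. Within it, *Cd3g* was far above the other two in pre-pro-B cells. *Cd3g* (NM_009850, 44777655 to 44788514) measured 36.8 FPKM (1.62 to 94.7) in the pre-pro-B library against 0.0351 FPKM (0 to 0.154) in the pro-B library. The pro-B value is close to the FPKM of 0.0326 that 3 reads would give this transcript, so no fold is drawn from it, and the intervals did not overlap. *Cd3d* (NM_013487, 44789869 to 44795135) measured 0.533 FPKM (0 to 1.87) in the pre-pro-B library, worth about 63.8 reads, and was listed at 0 in pro-B cells. *Cd3e* (NM_007648, 44806826 to 44817673) measured 0.239 FPKM (0 to 0.660) in the pre-pro-B library against 0.102 FPKM (0 to 0.303) in the pro-B library, worth about 30.9 and 13.2 reads. In pre-pro-B cells the FPKM of *Cd3g* was thus 69.1 times that of *Cd3d* and 154 times that of *Cd3e*. Its interval overlapped that of *Cd3d* and lay above that of *Cd3e*. A complete CD3 complex needs the delta and epsilon chains as well as the gamma chain, and the transcripts of both were among the 3 lowest of the 10 genes in pre-pro-B cells.

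The promoters of these 3 neighbouring genes are shown because their FPKM differed in pre-pro-B cells, although the intervals of *Cd3g* and *Cd3d* overlapped there. Each is the RefSeq sequence from 250 bases before to 50 bases after the gene's start on GRCm38.p6, a later build than that of the FPKM, written 5′ to 3′ on the strand of the gene, with capitals for E-boxes (CANNTG on either strand), the motif bound by E proteins such as E2a. They lie at chr9:44980382-44980681 (*Cd3g*, minus strand), chr9:44981536-44981835 (*Cd3d*, plus strand) and chr9:45009562-45009861 (*Cd3e*, minus strand).
Cd3g: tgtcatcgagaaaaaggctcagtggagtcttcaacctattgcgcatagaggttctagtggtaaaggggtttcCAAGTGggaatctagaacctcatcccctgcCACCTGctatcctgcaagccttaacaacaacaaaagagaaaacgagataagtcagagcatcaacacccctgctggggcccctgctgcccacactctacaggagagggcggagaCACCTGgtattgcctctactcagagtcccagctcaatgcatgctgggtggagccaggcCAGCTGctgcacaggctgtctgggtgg
Cd3d: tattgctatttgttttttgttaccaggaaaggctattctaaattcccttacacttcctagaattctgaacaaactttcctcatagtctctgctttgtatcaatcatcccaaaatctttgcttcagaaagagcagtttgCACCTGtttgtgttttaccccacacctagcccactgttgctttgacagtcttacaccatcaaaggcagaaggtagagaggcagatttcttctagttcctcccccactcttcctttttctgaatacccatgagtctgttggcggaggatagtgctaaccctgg
Cd3e: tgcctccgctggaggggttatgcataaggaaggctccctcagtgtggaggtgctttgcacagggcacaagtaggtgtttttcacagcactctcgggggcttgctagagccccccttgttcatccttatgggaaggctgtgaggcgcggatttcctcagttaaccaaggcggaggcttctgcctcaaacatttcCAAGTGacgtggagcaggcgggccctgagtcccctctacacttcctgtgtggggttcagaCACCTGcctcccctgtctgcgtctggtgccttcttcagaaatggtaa

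The *Cd3g* window held 4 E-boxes, the *Cd3d* window 1 and the *Cd3e* window 2. Of all 32851 RefSeq promoter windows of this length, 72.3% held at least 1 E-box and 6.49% held at least 4. The core letters of the motif of TCF factors, CTTTG on either strand, were found 4 times before *Cd3d*, 1 time before *Cd3e* and 0 times before *Cd3g*, and 53.9% of all windows held them at least once and 1.4% at least 4 times. The letters TGTGGT, a Runx motif, were in none of the 3 windows on either strand, and 16.8% of all windows held them. The short ETS core GGAA, present in 96.0% of all windows, occurred 2 times before *Cd3g*, 6 times before *Cd3d* and 5 times before *Cd3e* over both strands. Matches of different motifs were counted separately and may share bases, and they describe the letters only. Of the 10 genes, 8 had a RefSeq promoter in the table used, with 11 windows in all. Neither *Cd7* nor *Thy1* was among them. The windows of the other members held 3, 1 and 2 E-boxes for *Zap70*, 2 for *Cd247* and 2 for *Lat*. Those of *Tcf7* held 1 and 1, and that of *Bcl11b* held 0. A relation between these counts and the FPKM was not tested.

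*Cd247* encodes the zeta chain, which carries most of the tyrosine motifs of the receptor complex. The sum over its 4 transcripts, in FPKM, was 8.83 in the pre-pro-B library against 2.60 in the pro-B library, a 3.39-fold difference. The transcript with the largest share was a different one in each library. NM_001113391 measured 6.40 FPKM (0 to 43.2) in the pre-pro-B library, 72.5% of the gene, against 0.0378 FPKM (0 to 0.0703) in the pro-B library, 1.45% of the gene. NM_001113392 went from 0.920 (0 to 6.89) to 1.96 (0 to 12.8), or from 10.4% to 75.3% of the gene. NM_031162 was at 0.779 (0 to 4.80) and 0.605 (0 to 1.19), and NM_001113393 measured 0.730 FPKM (0 to 5.40) in the pre-pro-B library and was listed at 0 in pro-B cells. All of these intervals overlapped between the libraries and had a lower limit of 0, so that the division among the transcripts is uncertain. *Cd247* (chromosome 1 of mm9, 167718812 to 167807407, plus strand) shares 12123 bases with *Pou2f1* on the minus strand, and Cuffdiff estimated the transcripts of both as 1 locus from stranded reads.

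*Zap70* and *Lat*, which act below the receptor, were well above 0 in both libraries. *Zap70* (NM_009539, chromosome 1, 36818706 to 36839661), the kinase recruited to the phosphorylated receptor chains, measured 21.8 FPKM (1.32 to 56.9) in the pre-pro-B library against 32.9 FPKM (2.68 to 82.3) in the pro-B library. *Lat* (NM_010689, chromosome 7, 133507342 to 133513048), the membrane scaffold that Zap70 phosphorylates, measured 9.48 FPKM (0.352 to 33.1) against 19.8 FPKM (0.384 to 64.0). The pro-B value over the pre-pro-B value was 1.51 for *Zap70* and 2.09 for *Lat*, and both pairs of intervals overlapped widely. With the pseudocount the log2 change of *Lat* was 0.99, just inside the 2-fold limit, and it passed that limit with a pseudocount of 0.1 (1 gene higher) or after median-ratio scaling (1 gene higher). In pro-B cells these were the highest of the 10 genes. *Zap70* lay above 88.3% of all genes there, and *Lat* above 81.6%. The interval of *Zap70* in pro-B cells lay above those of *Cd7*, *Tcf7*, *Cd3e* and *Cd3g*, and overlapped that of *Lat*.

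Of the transcription factors, *Tcf7* was abundant in pre-pro-B cells and *Bcl11b* was not. *Tcf7* (NM_009331, chromosome 11, 52066106 to 52095752), which encodes TCF-1, measured 38.9 FPKM (2.06 to 101) in the pre-pro-B library against 0.118 FPKM (0 to 0.586) in the pro-B library, a 329-fold difference with intervals that did not overlap. The pro-B value is worth about 23.6 reads. *Bcl11b* (chromosome 12, 109148613 to 109241624), which is needed for T lineage commitment, reached a sum of 0.268 FPKM over its 2 transcripts in the pre-pro-B library and was listed at 0 in pro-B cells. Nearly all of the pre-pro-B value came from NM_021399 (0 to 0.754), worth about 186 reads over this long transcript, and the value of NM_001079883 was worth less than 1 read.

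*Cd7*, an immunoglobulin superfamily receptor of T and NK lineage cells, was the most abundant of the 10 genes in pre-pro-B cells. Its transcript (NM_009854, chromosome 11, 120898063 to 120900792) measured 79.3 FPKM (5.96 to 184) in the pre-pro-B library, above 96.5% of all genes, against 0.162 FPKM (0 to 0.722) in the pro-B library, worth about 15.1 reads. The fold was 491 and the intervals did not overlap. *Thy1* (NM_009382, chromosome 9, 43851467 to 43856662), a glycolipid-anchored surface protein of T cells that is also made by many fibroblasts, measured 5.95 FPKM (0.0911 to 16.3) in the pre-pro-B library and was listed at 0 in pro-B cells, where 3 reads would have given 0.0192. Its intervals count as apart, with the pro-B interval listed as 0 to 0. Since OP-9 cells are stromal, 10 stromal markers were read beside *Thy1*. Of these, 6 reached an FPKM of 1 in a library, 1 was lower (*Pdgfrb*) and 2 were higher (*Col1a2* and *Fn1*) in pro-B cells, beside the 19.1% and 12.2% of all genes. Their summed FPKM was 21.9 in the pre-pro-B library against 17.9 in the pro-B library, but *Pdgfrb* alone gave 15.9 and 0.377 of these, and the other 9 markers summed to 6.01 against 17.6. *Col1a1* had 0.207 and 0.522, *Dcn* was listed at 0 in both, and the part of stromal RNA in the *Thy1* value was not tested.

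**Figure D2:**
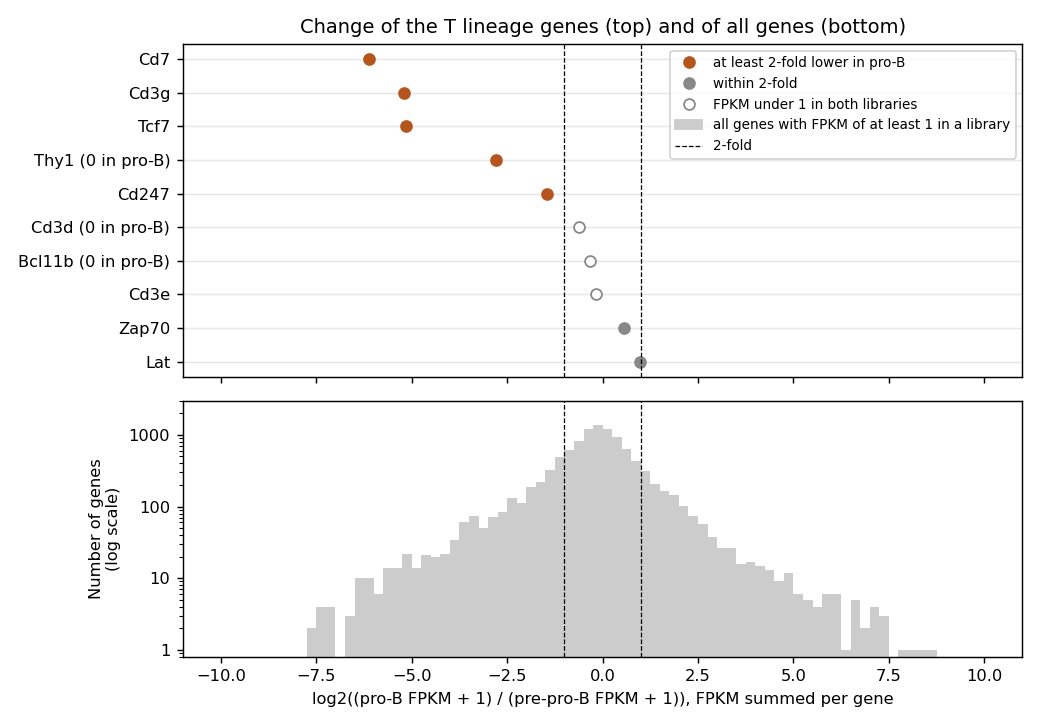
Change of each T lineage gene (top) on the log2 scale with a pseudocount of 1, and the number of genes at each change among the 10528 genes that passed the FPKM filter (bottom, log scale). *Cd7*, *Cd3g* and *Tcf7* lie below -5, and *Zap70* and *Lat* lie to the right of 0 within the dashed 2-fold lines.

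By level in pre-pro-B cells the order was *Cd7*, *Tcf7*, *Cd3g*, *Zap70*, *Lat*, *Cd247*, *Thy1*, *Cd3d*, *Bcl11b* and *Cd3e*, and in pro-B cells it began with *Zap70*, *Lat* and *Cd247*. Among the 8 genes with a single transcript, 0 of 7 pairs of neighbours in this order had intervals that were apart in either library. Over all 28 pairs of these genes, 6 were apart in the pre-pro-B library and 10 in the pro-B library. In pre-pro-B cells the 6 pairs set *Cd7* and *Tcf7* above *Cd3d* and *Cd3e*, and *Cd3g* and *Zap70* above *Cd3e*.

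The members were then set beside genes paired with them by role as B lineage counterparts, since FPKM are per length and can be compared between genes. Of 4 such pairs with *Zap70*, *Lat*, *Bcl11b* or *Tcf7*, the T lineage gene was the higher one in 1 pair in the pre-pro-B library (*Tcf7*) and 1 pair in the pro-B library (*Lat*). The transcription factors *Tcf7* and *Lef1*, which bind the same motif, exchanged places. *Lef1* is not a B lineage gene alone, and it is counted again among the regulators of T lineage development below. *Lef1* stood at 1.36 FPKM in the pre-pro-B library against 218 in the pro-B library, so that *Tcf7* was 28.7 times *Lef1* in the first and *Lef1* was 1844 times *Tcf7* in the second. The latter ratio rests on a *Tcf7* value of 0.118 FPKM, worth about 23.6 reads, and its size is uncertain. Of the 3 *Lef1* transcripts, 2 had intervals apart from that of *Tcf7* in the pre-pro-B library, as had 1 in the pro-B library. In the pre-pro-B library these included NM_001276402, whose interval is listed as 0 to 0. The scaffolds went the opposite way. *Lat2*, the related adaptor of B and myeloid cells, reached 70.7 FPKM in the pre-pro-B library, 7.46 times that of *Lat*, and 0.523 in the pro-B library, where *Lat* was 37.9 times higher. The interval of *Lat* overlapped those of both *Lat2* transcripts in the pre-pro-B library, and it also overlapped that of the more abundant one (NM_022964, 0 to 1.49) in the pro-B library.

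The kinases *Syk* and *Zap70* were both present in both libraries. The summed FPKM of *Syk* was 99.3 in the pre-pro-B library against 74.2 in the pro-B library, 4.55 and 2.25 times that of *Zap70*, and the intervals of both its transcripts overlapped that of *Zap70* in each library. *Bcl11a*, the B lineage relative of *Bcl11b*, had a summed FPKM of 39.0 and 45.1, and it was 145 times *Bcl11b* in pre-pro-B cells. Of its 4 transcripts, NM_001242934 alone had an interval apart from those of *Bcl11b*, in both libraries. For the signalling chains, *Cd79a* stood at 0.200 FPKM in the pre-pro-B library against 135 in the pro-B library, and *Cd79b* had 1.81 and 181. *Cd247* was therefore 44.1 times *Cd79a* and 4.87 times *Cd79b* in pre-pro-B cells, where the intervals of its 4 transcripts all overlapped those of both. In pro-B cells *Cd79a* was 51.7 times and *Cd79b* 69.3 times *Cd247*, and 3 of the 4 *Cd247* transcripts had intervals apart from those of *Cd79a* and *Cd79b*. The transcript that overlapped both was NM_001113392 (0 to 12.8), which held 75.3% of the *Cd247* sum in that library.

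Of the pairs without a member, the adaptors *Lcp2* and *Blnk* had an FPKM of 3.06 and 1.83 in the pre-pro-B library against 0.384 and 147 in the pro-B library. Their intervals overlapped in the pre-pro-B library and were apart in the pro-B library. *Lck* and *Blk*, kinases of the Src family, stood at 38.0 and 2.97 FPKM in the pre-pro-B library, and *Lck* was 12.7-fold lower in pro-B cells, where *Blk* (7.95) was 2.65 times *Lck*. All 3 *Lck* transcripts had intervals that overlapped between the libraries, and all overlapped that of *Blk* in the pre-pro-B library. In the pro-B library 1 of the 3 was apart from *Blk*, with an interval listed as 0 to 0.

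**Figure D3:**
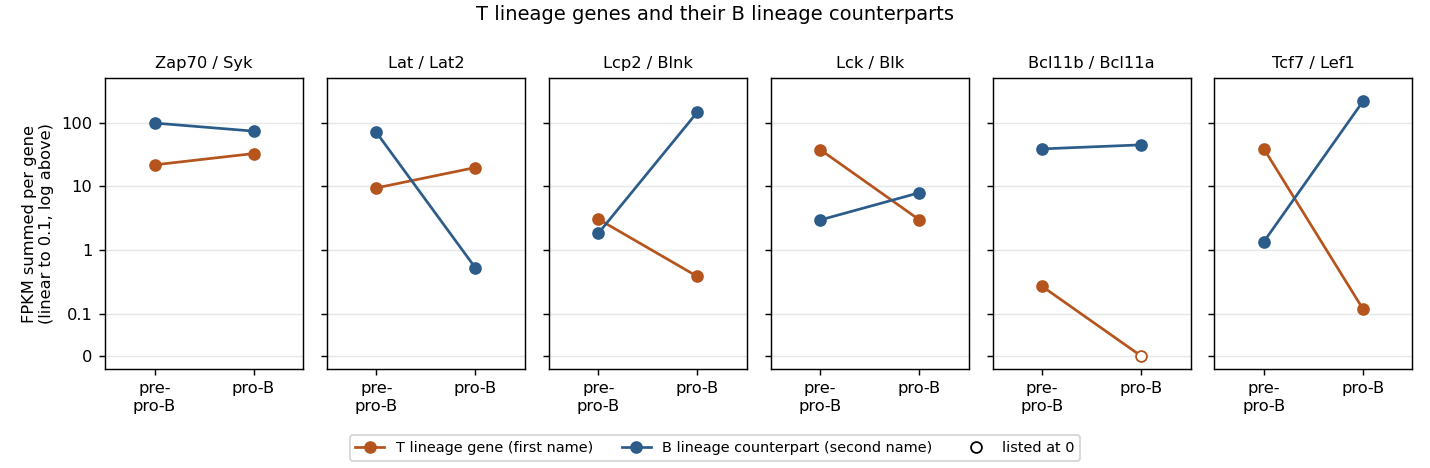
FPKM summed per gene (vertical axis, linear to 0.1 and log scale above) of 6 T cell genes (orange), 4 of them among the 10 T lineage genes, and their B lineage counterparts (blue) in the pre-pro-B and the pro-B library, with an open circle for a value listed at 0. The lines cross between *Tcf7* and *Lef1*, *Lat* and *Lat2*, *Lcp2* and *Blnk*, and *Lck* and *Blk*, and stay apart between *Zap70* and *Syk*.

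The wider T cell receptor pathway was lower in pro-B cells for most of its genes. Of 20 signalling genes, 18 reached an FPKM of 1 in a library, 13 were lower in pro-B cells, 1 was higher and 4 lay within 2-fold, with a median log2 change over the list of -1.61. The shares of all genes that were lower and higher, given above, are the background for this and the following lists. On the same log2 scale the largest differences were those of *Ptprc*, the CD45 phosphatase (summed FPKM 269 in the pre-pro-B library against 0.917 in the pro-B library), *Trat1*, a transmembrane adaptor associated with the receptor (95.7 and 0.236), and *Grap2*, the Gads adaptor (14.0 and 0.125). CD45 is carried by nearly all white blood cells, not T cells alone, and the cause of the low *Ptprc* value in pro-B cells was not tested. *Prkcq*, the protein kinase C of the T cell synapse, was the one that was higher, at 0.148 against 6.62 FPKM. *Plcg1*, which docks on Lat, was within 2-fold at 15.8 and 29.5, as was *Nck1* at 33.8 and 43.4.

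Among 16 T cell surface genes, 10 reached an FPKM of 1 in a library, of which 9 were lower in pro-B cells and 0 were higher, and the median log2 change of the list was -1.31. *Ccr9*, a chemokine receptor of thymus-seeding progenitors, stood at 212 FPKM in the pre-pro-B library against 0.661 in the pro-B library, *Cd27* had 105 and 0.579, and *Cd28* had 48.8 and 0.209. *Ptcra*, the pre-T alpha chain, was at 0.154 and 0.296. A list of 8 genes was read as mature T cell markers, although it holds *Ptcra*, which belongs to the pre-T stage. Of these, 7 are also among the T cell surface genes, and only *Cd2*, *Cd28* and *Cd4* passed an FPKM of 1 in the pre-pro-B library. All 3 were lower in pro-B cells, and *Cd2* was the highest of the list in the pre-pro-B library at 90.8 FPKM, against 1.29 in the pro-B library. In the pre-pro-B library *Cd4* was at 1.15, *Cd8a* at 0.322, *Cd8b1* at 0.0348, *Cd5* at 0.646 and *Themis* at 0.206.

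The 18 regulators of T lineage development were divided. Of 17 that reached an FPKM of 1 in a library, 7 were lower in pro-B cells, 5 were higher and 5 lay within 2-fold, and the median log2 change of the list over all 18 was -0.11, beside 0 over all 20250 genes. The chromatin organizer *Satb1* (summed FPKM 199 and 1.99), the HMG box factor *Tox* (64.4 and 0.563) and the E protein inhibitor *Id2* (182 and 7.95) had the largest differences toward pre-pro-B cells on the log2 scale with the pseudocount. After *Lef1*, *Ets1* (47.7 and 164) and *Gfi1* (2.86 and 10.7) had the largest toward pro-B cells. *Notch1* and *Gata3*, which act with *Tcf7* at T lineage entry and were picked after seeing their values, had an FPKM of 29.5 and 2.64 in the pre-pro-B library against 0.511 and 0.0392 in the pro-B library. Of the same list, *Hes1* was within 2-fold at 12.2 in the pre-pro-B library and 21.8 in the pro-B library. *Dtx1* was under an FPKM of 1 in both, at 0.0370 and 0.

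Markers of other cells that use some of these genes moved in the same direction as *Cd7*, *Tcf7* and *Cd3g*. Of 12 NK and innate lymphoid markers, 9 were lower in pro-B cells and 3 did not reach an FPKM of 1, with a summed FPKM of 522 in the pre-pro-B library against 6.72 in the pro-B library. The highest was *Klrd1* at 353 and 2.89, followed in size of change by *Gzma* at 56.3 and 0.123 and by *Nkg7* at 31.3 and 0. *Gzmb* was listed at 0 in both libraries, and *Ncr1* was at 1.90 in pre-pro-B cells. Of 8 plasmacytoid dendritic cell markers, 7 were lower in pro-B cells and *Tcf4* was higher, with a summed FPKM of 692 and 130. *Ccr9* and *Ly6d* stand in this list and among the T cell surface genes, and without them the sum was 401 and 127. *Cox6a2* alone gave 246 and 47.8 of these. *Siglech*, which defines those cells, was at 54.3 and 0.236. Of 7 measured myeloid markers, 4 were lower and 3 did not reach an FPKM of 1, with sums of 280 and 9.40. *Fcgr3* alone gave 218 and 2.88 of these. *Elane* was listed at 0 in both. All 4 progenitor markers were lower, with sums of 958 and 3.59. The part of such cells in the T lineage values was not tested.

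**Figure D4:**
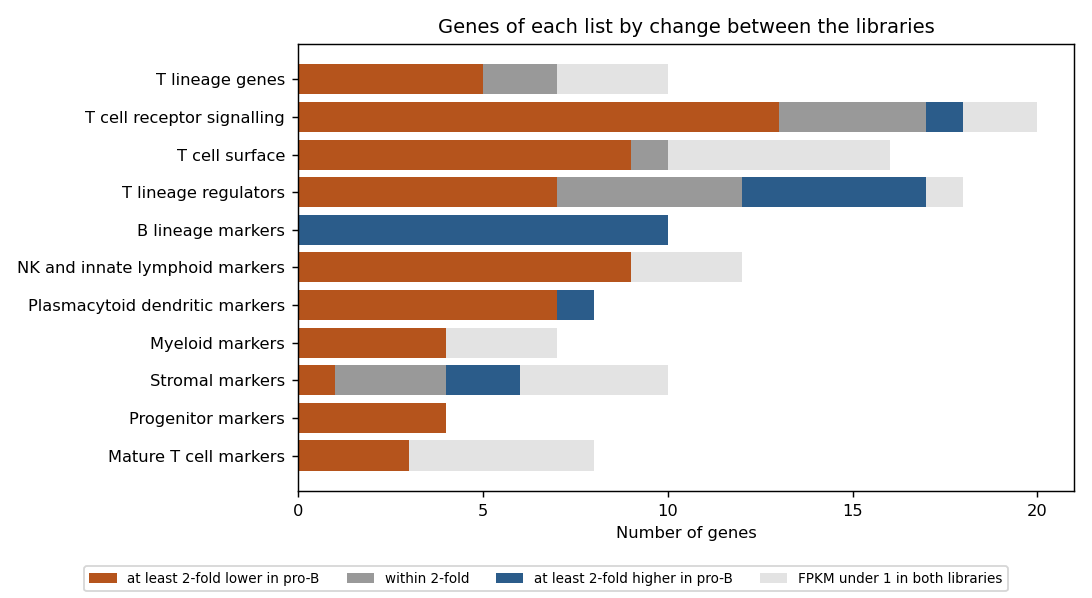
Number of genes (horizontal axis) of each list that were lower in pro-B cells by 2-fold or more (orange), within 2-fold (dark grey), higher by 2-fold or more (blue) or under an FPKM of 1 in both libraries (light grey), with 1 library per cell type. The B lineage counterparts are not drawn. The T cell receptor signalling bar holds 13 lower genes and 1 higher gene, and the B lineage marker bar is wholly in the higher class.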

How the data were processed

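Total RNA depleted of rRNA and of small RNAs was sequenced as strand-specific single-end 97 bp reads, 1 library per cell type. Per the labels and the study's methods, the authors trimmed the reads, aligned them to mm9 with TopHat (version 1.5 in the submitters' processing notes), allowing several alignments per read, and estimated FPKM of RefSeq transcripts with Cuffdiff 2.1.1, with multi-read and bias correction and no scaling between libraries. The deposited FPKM and their 95% limits were used as given. A second table holds the authors' fold changes and p-values, and neither these nor its 2 per-sample columns were used. Read numbers were approximated from the 90 M reads per library in the labels, not from the study's own count of mapped reads, and cover counting only.

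Gene names came from a RefSeq table of GRCm38.p6, which matched 26555 of 26968 protein-coding rows. *Cd68* was among the listed genes without a match. FPKM were summed per gene. Coordinates are those of mm9, counted from 1, from the deposited loci or, for *Cd247* and *Pou2f1*, GENCODE vM1. With 1 library per group no test was run. Genes were named as members, as members of a pair, or as 1 of the 3 largest changes in each direction of a list. *Notch1*, *Gata3*, *Hes1* and *Dtx1* were named outside this rule. Marker genes were named where they define a cell type, are at 0 or give a large part of a sum. A planned pair and a planned gene of the lists are not reported here by name, though the lists' counts include them. The members and lists were chosen with earlier results of these data known. The scripts (Python 3.11.15, numpy 2.4.6, pandas 2.3.3, matplotlib 3.10.9) were tested on simulated data. Alternatives were other pseudocounts, filters, scalings, transcript choices and thresholds.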

Additional observations from a re-analysis of the deposited data

How the results depend on the processing

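The count of T lineage genes lower in pro-B cells was 5 and lay between 4 (at a 4-fold threshold) and 6 (after rescaling to TPM, where *Cd3d* also passed) under every alternative run. The count of higher genes was 0 and became 1, *Lat*, with a pseudocount of 0.1 or 0.01 and after median-ratio scaling. The median log2 change of the 10 genes was -1.03, and it was -2.27 with a pseudocount of 0.1 and -5.28 with a pseudocount of 0.01, since a smaller pseudocount widens the change of genes near 0. With the most abundant transcript of each gene it was -1.71, where *Cd247* went from -1.45 to -2.83. Of 80 values of single genes under alternatives, 61 moved by less than 1.5-fold, 19 moved by more and 0 changed direction among genes past 2-fold. Many of the 61 could not move. The filter does not enter the log2 change, and no member had a duplicate row or a transcript without Cuffdiff's status OK. Each of these settings left all 10 values unchanged. Taking the most abundant transcript can change only genes with several transcripts. Leaving out transcripts listed at 0 in a library, an alternative chosen after seeing the data, left 3 transcripts with intervals apart in place of 4, without *Thy1*. TPM scaling shifted every log2 ratio by -0.09 and median-ratio scaling by 0.09 before the pseudocount. With the pseudocount, TPM moved 5 of the 10 genes by more than 1.5-fold, among them *Thy1* from -2.80 to -4.21. The median of the 10 was then -1.54, since a pseudocount of 1 weighs less beside the rescaled values. Median-ratio scaling moved 0 of the 10. No paired analysis was possible because each group holds 1 library. Depth limits *Cd3g*, *Cd7* and *Tcf7* in pro-B cells, whose values are worth few reads, and a listed 0 is not read as absence.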

Other observations

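The genes next to the T lineage genes were also read in both libraries. The nearest named gene with a protein-coding transcript on each side, leaving out the T lineage genes themselves, gave 16 genes, of which 12 reached an FPKM of 1 in a library, 3 were lower in pro-B cells and 1 was higher, beside 19.1% and 12.2% of all genes. Beside *Cd3g*, *Ube4a* stood at 22.7 FPKM in the pre-pro-B library against 14.0 in the pro-B library, within 2-fold. Beside *Cd7*, *Csnk1d* was within 2-fold at 44.4 and 25.3, and *Sectm1b* was listed at 0 in both libraries. *Skp1*, beside *Tcf7*, was lower in pro-B cells at 367 and 168, and *Usp2*, beside *Thy1*, was lower at 2.84 and 0.0145. *Sbk1*, the next gene beyond one end of *Lat*, was higher at 3.90 and 27.7, and *Spns1*, 517 bases from the other end of *Lat*, was within 2-fold at 1.95 and 3.75.

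*Ptprc* was near 0 in pro-B cells, although its product CD45 is carried by nearly all white blood cells. Its transcripts NM_011210 and NM_001111316 stood at 164 and 105 FPKM in the pre-pro-B library against 7.45e-05 and 0.141 in the pro-B library, while NM_001268286 went from a listed 0 to 0.776. All 3 carry the status OK in both libraries, and the cause was not tested. A further accession at the *Cd247* locus, NM_001113394, matched no gene name and was listed at 0 in both libraries.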
